A study of Mus musculus with 18 samples.

Results

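The lysine acetyltransferases described here are 10 mouse genes, Crebbp, Ep300, Kat2a, Kat2b, Kat5, Kat6a, Kat6b, Kat7, Kat8 and Hat1. They were chosen by name as the CBP/p300, GCN5/PCAF, MYST and type B enzymes that place acetyl groups on histones. All 10 had a value in these data, among 13598 genes with a value, and all 10 passed the filter on low values, 1 FPKM in 3 or more libraries, among 9707 genes tested. Kat6b passed it through control libraries alone. A gene's value is in FPKM, a density of sequenced fragments scaled to transcript length and to library size. It was read from the rows of first or last exons, which can cover a gene's transcripts in part, so the order of levels between genes is approximate.

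RNA-seq was performed on peritoneal macrophages of mice whose TLR4 was wild-type (TLR4-WT) or had 1 lysine of its TIR domain changed to arginine (TLR4-K730R or TLR4-K810R). Each genotype gave 3 control libraries and 3 libraries of cells exposed for 6 h to LPS at 100 ng/mL, 18 in all. Both mutants were made with CRISPR/Cas9 on a C57BL/6 background, carry the change in every cell, and were compared with TLR4-WT macrophages. All cells came from the peritoneal lavage of mice injected with thioglycollate, and no purification step was stated. The age and sex of the mice were not given. The labels do not say whether the 3 libraries of a group came from separate mice, so each p-value measures only the spread between these libraries. Only FPKM values were used, so the depth behind each value is unknown.

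Lysine acetyltransferases transfer the acetyl group of acetyl-CoA to lysine side chains, which neutralises their charge and creates docking sites for bromodomain proteins. In macrophages CBP (encoded by Crebbp) and p300 (encoded by Ep300) are best known as coactivators of NF-κB, interferon-regulatory and CREB factors at inflammatory enhancers. The same enzymes also acetylate proteins other than histones, and the study asked about such a case, the acetylation of the TIR domain of TLR4 by CBP.

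The libraries carried the marks of the cells and of the treatment they were labelled with. Macrophage markers summed to between 11633 and 14785 FPKM in the control libraries and between 7289 and 10057 FPKM in the LPS libraries, over the 7 of 8 listed genes. A gene with no row in a library is listed at 0, which need not mean that it was silent: Cd14, a macrophage surface receptor, was listed at 0 in 17 libraries and at 463 FPKM in the third TLR4-K810R LPS library. All 8 LPS-inducible check genes were called higher after LPS in each genotype, and Tnf, a cytokine gene, lay between 10.3 and 20.2 FPKM in the control libraries and between 217 and 330 FPKM after LPS. Tlr4 lay between 9.31 and 14.2 FPKM in the control libraries and between 4.18 and 5.72 FPKM after LPS. Of 6 tested macrophage markers 1 was called higher and 4 lower in TLR4-WT. Among the cell type markers S100a8 (mean 29.0 FPKM in control and 207 FPKM in LPS libraries) and Fcgr1 (50.1 and 318 FPKM) were called higher after LPS, and Lyz2 (12484 and 7031 FPKM) and Mertk (25.6 and 12.8 FPKM) lower. An FPKM value does not show the substitution that distinguishes the genotypes. Of 6 listed neutrophil markers S100a8 alone lay higher after LPS in every genotype without overlap, between 22.1 and 45.1 FPKM in the control libraries and between 165 and 239 FPKM after LPS. The other 5 lay at or under 2.67 FPKM, with Ly6g and Cxcr2 listed at 0 in every TLR4-WT library and Retnlg called lower after LPS in TLR4-WT (mean 2.07 FPKM in control libraries and 0 after LPS). The 8 listed mesothelial and fibroblast markers summed to between 32.0 and 49.1 FPKM in TLR4-WT control libraries and between 43.7 and 145 FPKM in TLR4-WT LPS libraries, where 1 of 7 tested, Dcn, was called higher (mean 4.58 FPKM in control and 19.4 FPKM in LPS libraries) and the median of the 7 was 0.88. In TLR4-K730R these markers summed to between 59.7 and 69.4 FPKM in control libraries and, lower, to between 47.8 and 48.4 FPKM in LPS libraries. They summed to between 118 and 284 FPKM in TLR4-K810R control libraries and between 103 and 124 FPKM in TLR4-K810R LPS libraries. The 8 intestinal markers summed to at most 0.594 FPKM in TLR4-WT control libraries, whereas the control libraries of TLR4-K730R held 8.56 to 38.4 FPKM and the other mutant's 12.5 to 54.1 FPKM. After LPS they summed to between 0 and 11.2 FPKM in TLR4-WT, 9.73 and 13.9 FPKM in TLR4-K730R, and 0.127 and 5.47 FPKM in the other mutant, where 3 of 5 tested were called lower. Sftpc, a surfactant gene of lung epithelium, was listed at 2.10 and 2.28 FPKM in TLR4-K810R LPS libraries 2 and 3 and at 0 in the other 16. In bulk RNA, fewer cells of a type and less RNA per cell cannot be told apart, and the part of these traces in the results below was not tested.

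The third LPS libraries of TLR4-WT and TLR4-K730R stood apart from the other libraries of their groups. Nos2, the inducible nitric oxide synthase, was at 406, 423 and 199 FPKM in the TLR4-WT LPS libraries and at 144, 123 and 441 FPKM in those of TLR4-K730R. Cxcl1, a chemokine gene, was at 137, 119 and 397 FPKM and at 515, 598 and 134 FPKM in the same order, and Mertk at 15.9, 14.0 and 8.65 FPKM and at 7.12, 6.18 and 13.5 FPKM. For each of these genes, chosen after their values were seen, the third library lay nearer to the first and second of the other genotype than to its own. Pearson's r was also taken over 9707 genes, centred on the mean of the 9 LPS libraries. That of the third TLR4-K730R LPS library was -0.16 and -0.10 with the others of its group and up to 0.26 with a TLR4-WT LPS library. That of the third TLR4-WT LPS library was -0.22 and -0.09 with its own group and between -0.27 and -0.07 with the TLR4-K730R LPS libraries. Its mean r was -0.16 with its own group, -0.15 with TLR4-K730R and -0.04 with TLR4-K810R. Over all genes it was thus not clearly nearer to TLR4-K730R than to its own group. These r describe libraries that share the centring. The groups were kept as labelled, and results that turn on these 2 libraries are given below without both, an alternative chosen after seeing the data that leaves 2 LPS libraries in each of these groups.

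Of the promoter windows that RefSeq gives for GRCm38.p6 (250 bases before to 50 bases after a start site), 9 of the 10 genes were matched. The 250 bases before the start of Kat2a, Kat2b and Kat6b are shown, because the ratios of Kat2a to Kat2b and of Kat6a to Kat6b differed between LPS and control libraries. Capitals mark matches on either strand to TGACG (the cAMP response half-site bound by CREB factors), CCAAT (the CCAAT box) and the κB site.
Kat2a, chr11:100712468-100712717, minus strand: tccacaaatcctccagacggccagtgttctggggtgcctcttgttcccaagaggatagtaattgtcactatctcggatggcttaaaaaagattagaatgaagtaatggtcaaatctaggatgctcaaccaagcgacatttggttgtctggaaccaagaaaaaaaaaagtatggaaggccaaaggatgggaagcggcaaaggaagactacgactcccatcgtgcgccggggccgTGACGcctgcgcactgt
Kat2b, chr17:53566721-53566970, plus strand: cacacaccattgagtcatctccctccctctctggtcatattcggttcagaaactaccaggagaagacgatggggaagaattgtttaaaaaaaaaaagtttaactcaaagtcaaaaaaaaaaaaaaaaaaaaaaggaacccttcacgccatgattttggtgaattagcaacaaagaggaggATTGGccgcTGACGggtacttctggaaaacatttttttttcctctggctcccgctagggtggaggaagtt
Kat6b, chr14:21499535-21499784, plus strand: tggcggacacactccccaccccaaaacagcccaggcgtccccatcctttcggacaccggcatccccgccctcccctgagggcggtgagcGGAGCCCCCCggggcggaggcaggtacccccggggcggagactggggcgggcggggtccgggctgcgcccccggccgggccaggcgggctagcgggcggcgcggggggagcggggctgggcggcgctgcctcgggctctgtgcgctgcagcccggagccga

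The windows of the paralogues differed in base composition. Over the full 300 bases, G and C made up 82.0% of the Crebbp window, 79.3% of the Kat6b window and 72.3% of the Ep300 window, against a median of 52.7% over 32851 windows. They made up 54.3% of the Kat2a window and 47.0% of the Kat2b window. The RefSeq start lay within 2 bases of the first exon with most signal for Kat2a and Kat2b, while that first exon of Kat6b began 1068 bases from the RefSeq start. For Crebbp, Ep300 and Hat1 the distance was 593, 817 and 302 bases. The Crebbp and Ep300 windows lay wholly, and the Hat1 window mostly, within that listed first exon. Those windows thus hold sequence that these data list as transcribed. A TGACG match lay in the windows of 5 of the 9 genes (Kat2a, Kat2b, Kat5, Kat7 and Kat8) and in 20.8% of all windows, and an ETS match (CCGGAAG) in those of Kat5, Kat7, Kat8 and Hat1 and in 8.86% of all windows. A CCAAT match lay in those of Kat2b, Kat5, Kat7, Kat8 and Hat1 and in 37.4% of all windows. An E-box (CACGTG) was found for Kat5, where it overlapped a TGACG match, and for Hat1, and in 7.15% of all windows. The κB site was found for Kat6b alone among the 9 and in 8.46% of all windows, the interferon response element for Kat5 alone and in 3.44%, and the NRF1 site for Kat7 alone and in 4.60%. None of the 9 windows held TATAAA, which 13.6% of all windows held, and both strands were read throughout. A match is a description of the letters in the window and not a bound site.

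The 10 genes spanned a wide range of levels. By the mean over all 18 libraries Kat5 was highest (18.5 FPKM), followed by Hat1 (16 FPKM), Kat7 (11.3 FPKM), Ep300 (10.3 FPKM), Kat6a (8.02 FPKM), Kat2a (6.40 FPKM), Kat2b (5.60 FPKM), Kat8 (5.09 FPKM), Crebbp (4.98 FPKM) and Kat6b (1.08 FPKM). Kat2a exceeded Kat2b in 10 of 18 libraries, Kat2b exceeded Kat8 in 10 and Kat8 exceeded Crebbp in 11, so these 4 genes were not ordered beyond their spread. Crebbp exceeded Kat6b in 18 of 18 libraries, and the other neighbours kept their order in 13 to 15. Kat6a varied least, from 6.32 to 9.21 FPKM, and Kat7 lay between 9.04 and 14.0 FPKM. Hat1 lay between 9.50 and 32.1 FPKM and Kat6b between 0.0483 and 3.82 FPKM.

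**Figure D1:**
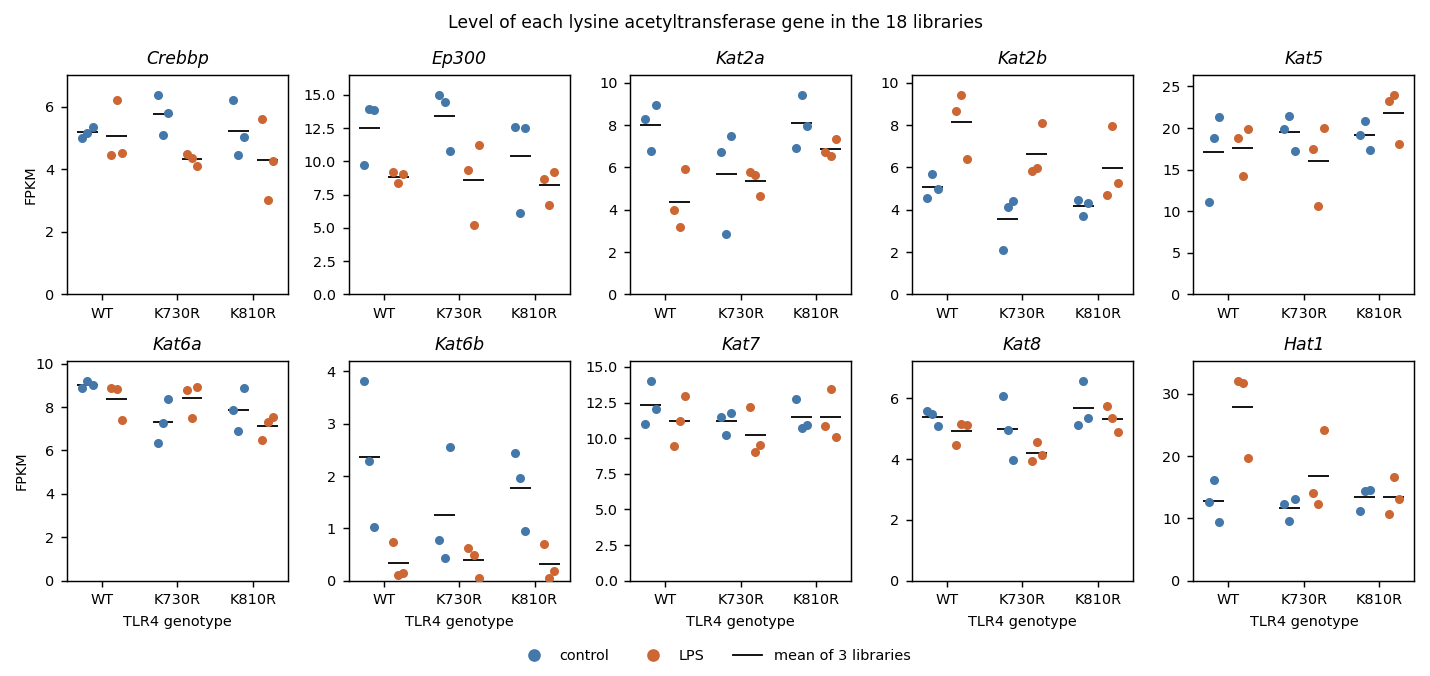
Level of each of the 10 lysine acetyltransferase genes in the 18 libraries. The y axis of each panel is FPKM from 0, points are single libraries, grouped by TLR4 genotype (blue, control; orange, LPS) and bars are means of 3 libraries. The LPS libraries sit above the control libraries for Kat2b in each genotype, and the highest Hat1 values, 31.7 and 32.1 FPKM, are in TLR4-WT after LPS.

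The first comparison asked what 6 h of LPS did to these genes. The median over all tested genes was itself lower after LPS, at -0.28 (log2) for TLR4-WT, -0.36 for TLR4-K730R and -0.26 for the other mutant, so that a gene near 0 lay above most others. Differences below are on the log2(FPKM + 1) scale and were tested with limma over all 9707 genes, with a call at a Benjamini-Hochberg adjusted p below 0.01. This scale understates the change of genes near or under 1 FPKM. In TLR4-WT 1 of the 10 genes was called (Hat1, higher), where 34.3% of all tested genes were called, 10.4% higher and 23.9% lower. In TLR4-K730R 1 of 10 was called (Kat2b, higher), where 35.8% of all genes were called, 9.32% higher and 26.5% lower. In TLR4-K810R 0 of 10 were called by limma, where 28.8% of all genes were, 9.08% higher and 19.7% lower. The median difference over the 10 was -0.11, -0.16 and -0.10 in the same order.

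At an adjusted p below 0.05 there were 4 of 10 in TLR4-WT against 47.4% of all genes, 1 against 48.8% in TLR4-K730R and 1 against 40.3% in TLR4-K810R. At an unadjusted p below 0.05 there were 4 against 54.1%, 2 against 55.4% and 1 against 48.5%. The LPS libraries lay all above the control libraries for 2 of the 10 genes in TLR4-WT (15.5% of all genes) and all below for 3 (39.5%). In TLR4-K730R 1 gene lay above (13.8%) and 1 below (45%), and in TLR4-K810R 1 lay above (14.6%) and 1 below (37.9%).

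A contrast over the mean of the 3 genotypes was added after the single genotypes had been seen, since it uses 9 LPS and 9 control libraries. There 3 of the 10 genes were called, Kat2b and Hat1 higher and Kat6b, which passed the filter through control libraries alone, lower, where 54.9% of all tested genes were called, 13.9% higher and 40.9% lower. At an unadjusted p below 0.05 there were 6 of 10, against 68.8% of all genes. The median difference was -0.11 over the 10 and -0.30 over all genes.

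**Figure D2:**
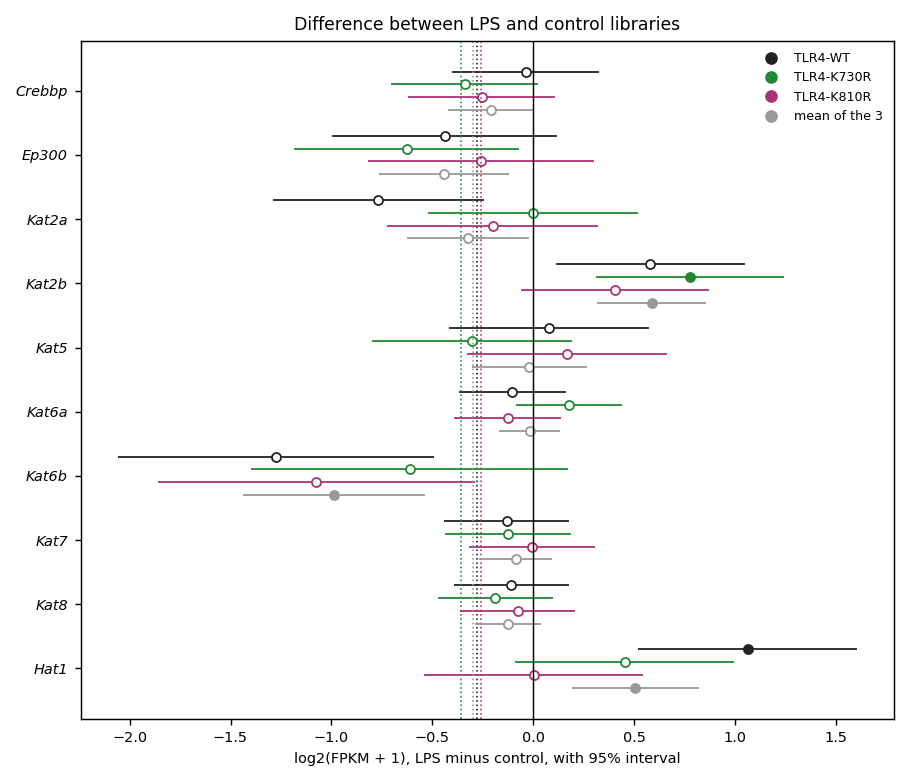
Difference between LPS and control libraries for each gene. The x axis is the difference in log2(FPKM + 1), LPS minus control, with its 95% interval, for each genotype and for their mean, filled circles mark an adjusted p below 0.01 and dotted lines the median over all tested genes. Hat1 in TLR4-WT is at 1.06, Kat2b lies right of 0 in every genotype and Kat6b left of it.

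Crebbp, which encodes the enzyme that the study places upstream of TLR4 acetylation, was not called in any LPS comparison. The study's evidence concerns CBP protein: its increase in the cytoplasm after LPS, its binding to TLR4, and the effects of its knockout and inhibition. A level of RNA at 6 h does not measure the amount, place or activity of that protein. In TLR4-WT the level of Crebbp was 5.0, 5.17 and 5.35 FPKM in the control libraries and 4.45, 6.22 and 4.53 FPKM after LPS. In TLR4-K730R it was 6.39, 5.08 and 5.81 FPKM in the control libraries and 4.49, 4.37 and 4.12 FPKM after LPS. In TLR4-K810R it was 6.22, 4.44 and 5.04 FPKM in the control libraries and 5.62, 3.01 and 4.25 FPKM after LPS. The groups overlapped in TLR4-WT and TLR4-K810R and did not in TLR4-K730R, where all 3 LPS libraries were lower. The differences were -0.04 ± 0.17 (SE), -0.34 ± 0.17 and -0.26 ± 0.17 in the order given (limma, adjusted p = 0.876, 0.112 and 0.249). Over the mean of the genotypes the difference was -0.21 with a 95% interval from -0.42 to -0.0018 (adjusted p = 0.0705) and with each library rescaled by the median of its ratios to the others it was 0.07 (adjusted p = 0.587), so its sign depended on the scaling.

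Ep300, the paralogue of Crebbp, was called in no LPS comparison by its first-exon or last-exon sums, and was called over the mean of the genotypes by another reading of its value. In TLR4-WT it was 9.74, 14.0 and 13.8 FPKM in the control libraries and 9.19, 8.36 and 9.05 FPKM after LPS, with no overlap. In TLR4-K730R it was 15.0, 14.5 and 10.8 FPKM against 9.34, 5.24 and 11.3 FPKM, with overlap. In TLR4-K810R it was 12.6, 6.14 and 12.5 FPKM against 8.67, 6.72 and 9.23 FPKM, with overlap through the second control library. The differences were -0.44 ± 0.26 (SE), -0.63 ± 0.26 and -0.26 ± 0.26 (limma, adjusted p = 0.183, 0.0596 and 0.457), and -0.44 over the mean of the genotypes (adjusted p = 0.0180). With median-of-ratios scaling this last difference was -0.13 (adjusted p = 0.471). It was called without the second TLR4-K810R control library (-0.54, adjusted p = 0.00207) or without the third TLR4-K730R LPS library (-0.51, adjusted p = 0.00812). In that second TLR4-K810R control library an inner exon of Ep300, chr15:81616726-81616863 (GRCm38), was listed at 15.4 FPKM, well above the first-exon value of 6.14 FPKM. When the largest single event of the gene was taken as its value, an alternative chosen after seeing the data, the TLR4-K810R control libraries read 12.6, 15.4 and 12.6 FPKM and no longer overlapped those after LPS. With it the first TLR4-WT control library read 9.98 FPKM and the third TLR4-K730R control library 10.8 FPKM, close to before. Ep300 was then called lower over the mean of the genotypes (-0.58 ± 0.12, limma, adjusted p = 6.06e-04), where 41.3% of all genes were called lower, and was not called in any single genotype.

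Kat2a (GCN5) and Kat2b (PCAF) are the alternative acetyltransferases of the SAGA and ATAC coactivator complexes, and of the pair Kat2b was called. Kat2b was 4.55, 5.71 and 4.97 FPKM in TLR4-WT control libraries and 8.64, 9.44 and 6.40 FPKM after LPS. It was 2.10, 4.13 and 4.43 FPKM in TLR4-K730R control libraries and 5.82, 5.97 and 8.12 FPKM after LPS. It was 4.46, 3.73 and 4.33 FPKM in TLR4-K810R control libraries and 4.69, 7.97 and 5.28 FPKM after LPS. Every LPS library lay above every control library of its genotype. The mean rose 1.87-fold in TLR4-K730R (0.78 ± 0.22, SE, limma, adjusted p = 0.00834), and it was 1.61-fold higher in TLR4-WT (0.58 ± 0.22, adjusted p = 0.0397) and 1.43-fold higher in TLR4-K810R (0.41 ± 0.22, adjusted p = 0.155), which missed the threshold. The rise over the mean of the genotypes was 0.59 ± 0.13 (adjusted p = 7.30e-04). The call in TLR4-K730R was lost without any 1 of 4 of its 6 libraries (control 1, LPS 1, 2 or 3), with adjusted p of 0.0527 without control 1. Without the third LPS libraries of TLR4-WT and TLR4-K730R the difference in TLR4-K730R was 0.64 (adjusted p = 0.0375) and that in TLR4-WT 0.73 (adjusted p = 0.0192), neither of them called, whereas the call over the mean of the genotypes was kept without each of the 18 libraries in turn.

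Kat2a was 8.30, 6.75 and 8.93 FPKM in TLR4-WT control libraries and 3.99, 3.20 and 5.93 FPKM after LPS, with no overlap. It was 6.72, 2.88 and 7.49 FPKM in TLR4-K730R control libraries and 5.76, 5.63 and 4.65 FPKM after LPS. It was 6.94, 9.44 and 7.94 FPKM in TLR4-K810R control libraries and 6.75, 6.56 and 7.34 FPKM after LPS, and both mutants overlapped. The differences were -0.77 ± 0.25 (SE), -0.0016 ± 0.25 and -0.20 ± 0.25, none of them called (limma, adjusted p = 0.0177, 0.997 and 0.544). Without the third TLR4-WT LPS library Kat2a was called lower in TLR4-WT (-0.97, adjusted p = 0.00668). The difference over the mean of the genotypes was -0.32 (adjusted p = 0.0555), and it was -0.44 and called without the second TLR4-K730R control library (adjusted p = 0.00174).

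Among the MYST enzymes, Kat6b was called lower over the mean of the genotypes and its paralogue Kat6a was not called. Kat6b (MORF) was 3.82, 2.28 and 1.02 FPKM in TLR4-WT control libraries and 0.746, 0.118 and 0.157 FPKM after LPS. It was 0.774, 0.441 and 2.56 FPKM in TLR4-K730R control libraries and 0.621, 0.497 and 0.0502 FPKM after LPS. It was 2.43, 1.96 and 0.950 FPKM in TLR4-K810R control libraries and 0.706, 0.0483 and 0.187 FPKM after LPS. The LPS libraries lay below the control libraries in TLR4-WT and TLR4-K810R and overlapped them in TLR4-K730R. The differences were -1.27 ± 0.37 (SE), -0.61 ± 0.37 and -1.07 ± 0.37 (limma, adjusted p = 0.01001, 0.182 and 0.0292), of which the first missed the threshold of 0.01 narrowly. That one was called without the third TLR4-WT control library (-1.60, adjusted p = 0.00372) or without the first TLR4-WT LPS library (-1.48, adjusted p = 0.00950). Over the mean of the genotypes the difference was -0.99 ± 0.21 (SE, limma, adjusted p = 7.45e-04), and it was called without a filter too. The 6 libraries in which Kat6b reached 1 FPKM were all control libraries, so the filter admitted it through the group where it was high and the call is given as a description.

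The Kat6b values are low, and its last exons have no row, so an inner exon was read beside them. The exon at chr14:21662158-21662466 (GRCm38) was listed at 2.56, 2.0 and 1.94 FPKM in TLR4-WT control libraries and at 0.511 and 0.884 FPKM in 2 LPS libraries, with no row in the other. In TLR4-K730R it was at 2.82, 5.32 and 2.28 FPKM in control libraries and at 0.547, 1.07 and 0.684 FPKM after LPS. In TLR4-K810R it was at 1.94, 1.78 and 5.48 FPKM in control libraries and at 1.69 and 1.02 FPKM in 2 LPS libraries. With the largest single event as the value, the LPS libraries of Kat6b lay below the control libraries in each genotype. Kat6b was then called lower in TLR4-WT, where 24.2% of all genes were called lower by that value (-1.20 ± 0.31, SE, limma, adjusted p = 0.00461) and in TLR4-K730R, where 27% were (-1.31 ± 0.31, adjusted p = 0.00243), and not in TLR4-K810R, where 19.8% were (-0.94 ± 0.31, adjusted p = 0.0231). By that value the control mean was 4.50-fold, 4.51-fold and 2.90-fold the LPS mean in this order of genotypes.

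**Figure D3:**
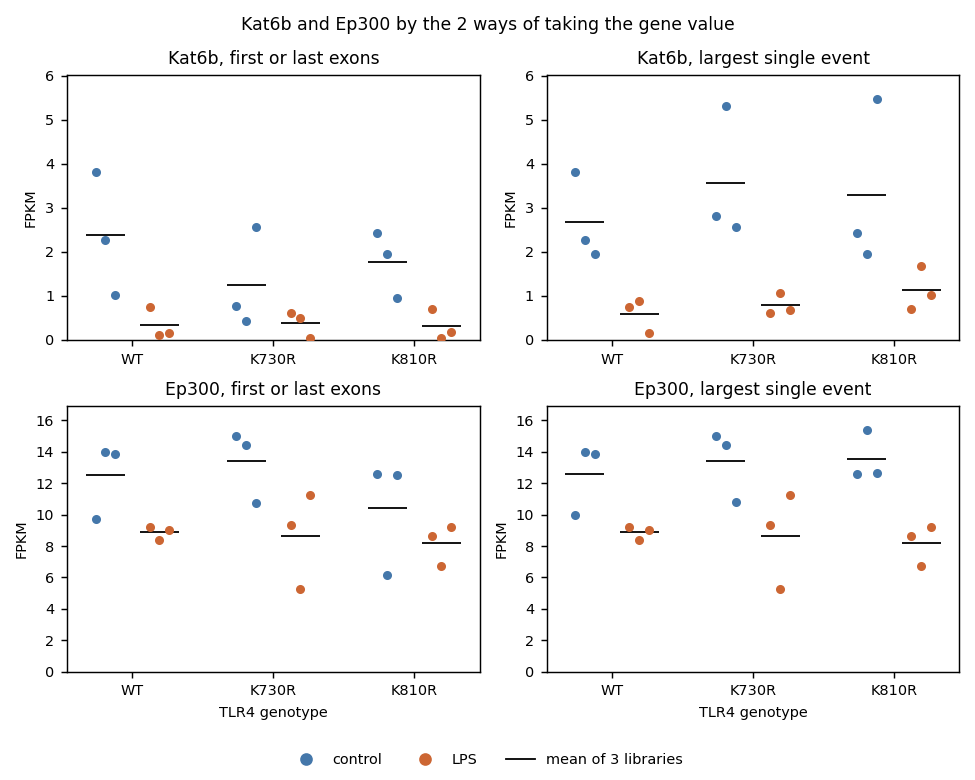
Kat6b (top) and Ep300 (bottom) by the first-exon or last-exon sums used throughout (left) and by the largest single event of the gene (right). The y axes are FPKM from 0, points are single libraries (blue, control; orange, LPS) and bars are means of 3 libraries. On the right the second TLR4-K810R control library of Ep300 moves from 6.14 to 15.4 FPKM, and the Kat6b libraries separate in each genotype.

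Kat6a (MOZ), Kat5 (TIP60), Kat7 (HBO1) and Kat8 (MOF) were called in no LPS comparison on the deposited scale. The mean of Kat6a over 9 libraries was 8.08 ± 1.04 FPKM (SD, n = 9) in the control libraries and 7.96 ± 0.90 FPKM (SD, n = 9) after LPS, and the difference over the mean of the genotypes was -0.02 with a 95% interval from -0.17 to 0.14. The mean of Kat5, the catalytic subunit of the NuA4/TIP60 complex, was 18.6 ± 3.21 FPKM (SD, n = 9) against 18.5 ± 4.14 FPKM (SD, n = 9), with an interval of the difference from -0.30 to 0.27. Kat7, which acetylates histone H3 and H4 with BRPF or JADE scaffolds, had means of 11.7 ± 1.16 FPKM (SD, n = 9) and 11 ± 1.59 FPKM (SD, n = 9), with an interval from -0.27 to 0.093. Kat8, the histone H4 lysine 16 acetyltransferase, had means of 5.36 ± 0.73 FPKM (SD, n = 9) and 4.83 ± 0.59 FPKM (SD, n = 9), with an interval from -0.29 to 0.040. When each library was rescaled by the median of its ratios to the other libraries, the differences of these 4 genes over the mean of the genotypes turned positive, from 0.16 for Kat8 to 0.30 for Kat5, and Kat6a was called higher (0.28, limma, adjusted p = 0.00545). Kat6a was then also called higher in TLR4-K730R (0.54, adjusted p = 0.00436). Under that scaling Hat1 (0.82), Kat2b (0.87) and Kat6b (-0.84) were called in the same direction, and the difference of Kat2a was -0.04.

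Hat1, the type B enzyme that acetylates newly made histone H4 before its deposition on chromatin, showed the largest rise of the 10, in TLR4-WT. It was 12.7, 16.1 and 9.50 FPKM in the control libraries and 32.1, 31.7 and 19.8 FPKM after LPS, with no overlap. It was 12.3, 9.54 and 13.1 FPKM in TLR4-K730R control libraries and 14.1, 12.3 and 24.2 FPKM after LPS. It was 11.1, 14.4 and 14.6 FPKM in TLR4-K810R control libraries and 10.7, 16.7 and 13.1 FPKM after LPS, and both mutants overlapped. Hat1 rose 2.18-fold in TLR4-WT (1.06 ± 0.26, SE, limma, adjusted p = 0.00290). The difference was 0.45 ± 0.26 in TLR4-K730R (adjusted p = 0.155) and 0.0019 ± 0.26 in TLR4-K810R (adjusted p = 0.998). The contrast of each mutant's response with that of TLR4-WT was not called, at -0.61 ± 0.36 for TLR4-K730R (adjusted p = 0.780) and -1.06 ± 0.36 for TLR4-K810R (adjusted p = 0.232), so Hat1 was not shown to respond differently. The third LPS library was the lowest of the 3 in TLR4-WT and the highest in TLR4-K730R, the order in which Nos2 lay. Without both, the rise in TLR4-WT was 1.29 (adjusted p = 2.50e-04), the difference in TLR4-K730R 0.18 (adjusted p = 0.530), and the contrasts of responses -1.11 for TLR4-K730R (adjusted p = 0.122) and -1.28 for TLR4-K810R (adjusted p = 0.0254), still not called. Without the third TLR4-WT control library the rise in TLR4-WT was 0.88 (adjusted p = 0.0186), without the first LPS library 0.95 (adjusted p = 0.0161) and without the second LPS library 0.96 (adjusted p = 0.0158), each of which ends the call. The call over the mean of the genotypes (0.51 ± 0.15, adjusted p = 0.00677) was lost without any 1 of 9 libraries, with adjusted p up to 0.0163. It was also lost with a replicate block (adjusted p = 0.0112), without the filter (adjusted p = 0.0115) and with first-exon events only (adjusted p = 0.0245).

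Hat1 works on histones made during replication, so genes of the cell cycle were read beside it. Pcna, the replication clamp, fell by 1.20 on the log2 scale in TLR4-WT (limma, adjusted p = 5.07e-06), and Mki67, the proliferation antigen, rose by 0.86 (adjusted p = 0.00378). Of the 12 S-phase genes 0 were called higher and 1 lower (Pcna) in TLR4-WT, with a median of -0.31 beside -0.28 over all genes, and of the 10 tested G2 and M genes 1 was called higher and 0 lower, with a median of 0.32, where 10.4% of all genes were called higher and 23.9% lower. Without the third LPS libraries of TLR4-WT and TLR4-K730R, 0 of the 10 G2 and M genes were called in TLR4-WT, with a median of 0.07. Of the 12 S-phase genes 0 were then called higher and 2 lower, with a median of -0.29. The parts of cycling cells and of the mesothelial and fibroblast trace in the level of Hat1 were not tested.

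The ratios of paralogues within a library do not depend on how libraries are scaled. The ratio of Kat2a to Kat2b lay between 0.697 and 3.19 in the control libraries and between 0.339 and 1.44 after LPS. In TLR4-WT it was 1.82, 1.18 and 1.80 in control libraries and 0.461, 0.339 and 0.927 after LPS. In TLR4-K730R it was 3.19, 0.697 and 1.69 against 0.991, 0.942 and 0.573. In TLR4-K810R it was 1.56, 2.53 and 1.83 against 1.44, 0.823 and 1.39. Thus Kat2a exceeded Kat2b in 8 of 9 control libraries and in 2 of 9 LPS libraries. The ratio fell 2.11-fold over the genotypes (exact two-sided permutation test within genotype, 8000 arrangements, p = 0.0035, adjusted over 3 ratios p = 0.00525). The log2 differences were -1.58, -0.94 and -0.71 by genotype, TLR4-WT first.

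The ratio of Kat6a to Kat6b was 2.32, 4.04 and 8.83 in TLR4-WT control libraries and 11.9, 74.9 and 47.3 after LPS. In TLR4-K730R it was 8.17, 16.5 and 3.27 against 14.2, 15.0 and 178. In TLR4-K810R it was 3.23, 3.51 and 9.35 against 9.19, 151 and 40.3. It rose 6.58-fold over the genotypes (exact permutation test, p = 0.0015, adjusted p = 0.0045). The size of this rise rests on Kat6b values under 1 FPKM, and with the largest single event of each gene it was smaller, 2.01 on the log2 scale (exact permutation test, p = 0.00025, the smallest p that 8000 arrangements can give). The ratio of Crebbp to Ep300 lay between 0.352 and 0.834 in the 18 libraries, so that Ep300 exceeded Crebbp in each, and its difference between LPS and control libraries was 0.23 on the log2 scale (exact permutation test, p = 0.223, adjusted p = 0.223).

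**Figure D4:**
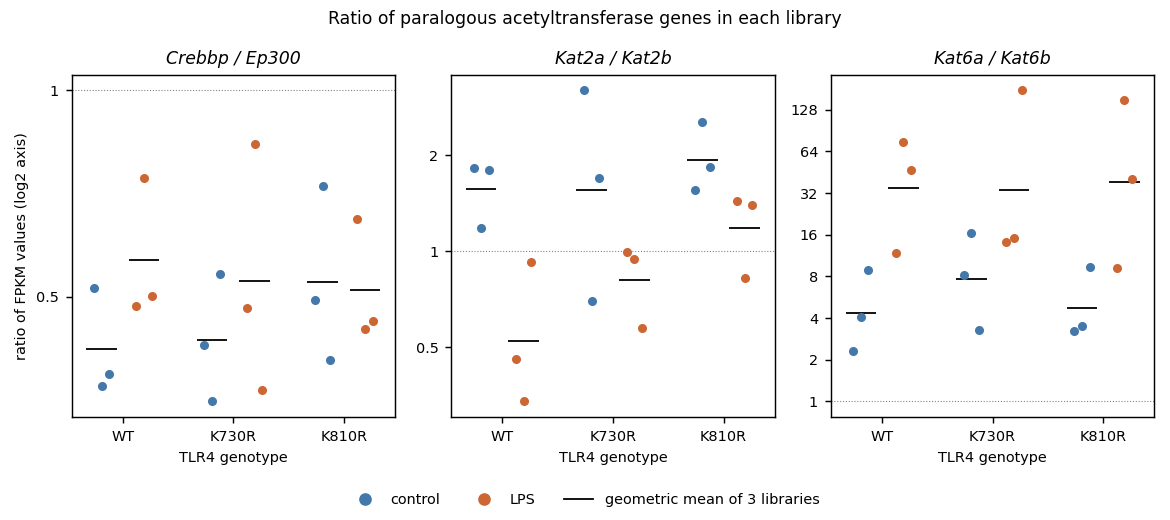
Ratio of the FPKM values of paralogous genes in each library, on a log2 axis. Points are single libraries (blue, control; orange, LPS), bars are geometric means of 3 libraries and the dotted line marks a ratio of 1. Kat2a over Kat2b is lower and Kat6a over Kat6b higher in the LPS libraries, while Crebbp over Ep300 stays under 1 in all 18.

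The second set of comparisons asked whether the TLR4 substitutions changed these genes. None of the 10 was called between TLR4-K730R and TLR4-WT in control libraries, where 0.268% of all tested genes were called, or after LPS, where 0% were. None was called between TLR4-K810R and TLR4-WT in control libraries, where 1.58% were called, or after LPS, where 0.134% were. Both background counts turned on single libraries: the 153 genes of the control comparison were 50 without the third TLR4-WT control library, and the 13 genes after LPS were 283 without the third TLR4-WT LPS library and 366 with library weights. Without the third LPS libraries of TLR4-WT and TLR4-K730R the comparison after LPS called 161 genes (1.66%) for TLR4-K730R, with 0 of the 10 among them, and 577 genes (5.94%) for TLR4-K810R, with 1 of the 10, Hat1. For the contrast of LPS responses, 0 of 10 were called for TLR4-K730R (0.0412% of all genes) and 0 for TLR4-K810R (0.124%). At an unadjusted p below 0.05 there were 1 of 10 for TLR4-K730R in control libraries against 7.7% of all genes and 1 after LPS against 7.69%, and 0 for TLR4-K810R in control libraries against 14.1% and 2 after LPS against 21.8%. For the contrasts of responses there were 1 of 10 against 7.02% for TLR4-K730R and 1 against 13.2% for TLR4-K810R. Mutant and TLR4-WT libraries did not overlap for 2 of 10 genes in control libraries of TLR4-K730R (16.4% of all genes), 0 after LPS (10.9%), 1 in control libraries of TLR4-K810R (20.8%) and 2 after LPS (25.3%). In control libraries the differences of the 10 genes lay between -0.60 and 0.22 for TLR4-K730R and between -0.29 and 0.20 for TLR4-K810R.

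The lowest adjusted p belonged to Hat1 after LPS, where the 3 TLR4-K810R libraries (10.7, 16.7 and 13.1 FPKM) lay below the 3 TLR4-WT libraries (32.1, 31.7 and 19.8 FPKM). This difference was -0.98 ± 0.26 (SE, limma, adjusted p = 0.0540) and was called with library weights (adjusted p = 0.00735). Without the third LPS libraries of TLR4-WT and TLR4-K730R it was -1.20 and called (adjusted p = 0.00274), and that of TLR4-K730R was -1.21 and just missed the threshold (adjusted p = 0.0103). Kat2a lay higher in TLR4-K810R than in TLR4-WT after LPS, without overlap (0.58 ± 0.25, adjusted p = 0.189). Kat6a lay lower in TLR4-K730R than in TLR4-WT control libraries, 6.32, 7.29 and 8.38 FPKM against 8.85, 9.21 and 9.03 FPKM (-0.28 ± 0.12, adjusted p = 0.620). For Crebbp the 95% interval of the difference after LPS ran from -0.54 to 0.19 in TLR4-K730R and from -0.58 to 0.15 in TLR4-K810R. Both mutants were compared with the same TLR4-WT libraries.

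**Figure D5:**
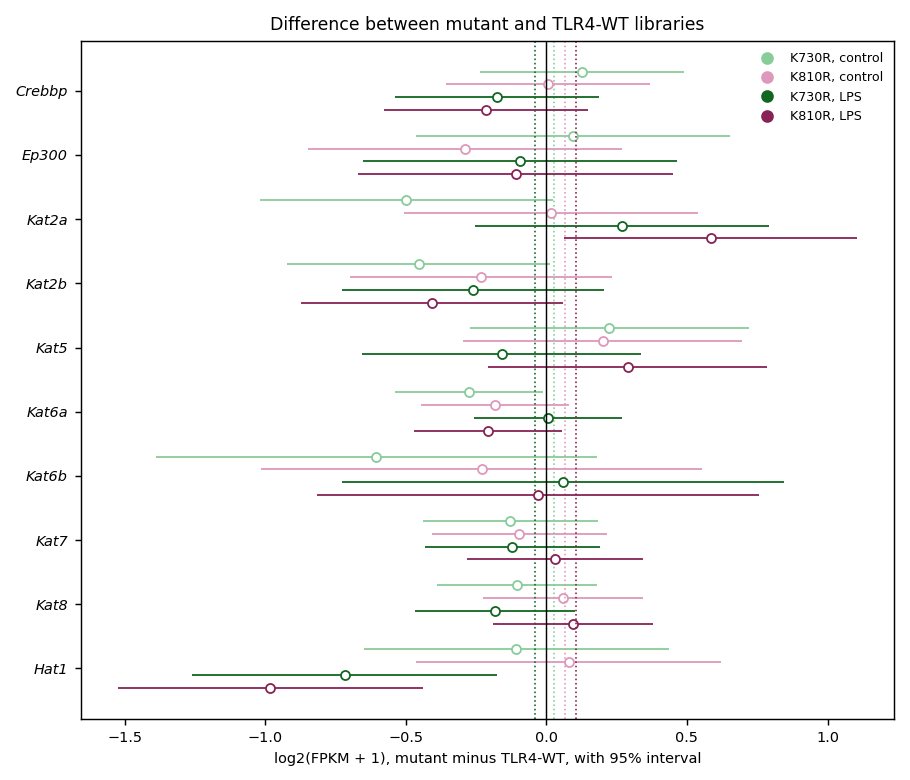
Difference between mutant and TLR4-WT libraries for each gene. The x axis is the difference in log2(FPKM + 1), mutant minus TLR4-WT, with its 95% interval, for control and for LPS libraries, with dotted lines at the median over all tested genes and open circles for an adjusted p of 0.01 or more. No circle is filled, and Hat1 after LPS lies farthest from 0, at -0.98 in TLR4-K810R.

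The genes that work with these enzymes were read from lists. Of 11 tested factors that recruit or regulate CBP and p300, 1 was called higher and 1 lower after LPS in TLR4-WT. Creb5, a CREB-family factor, rose by 1.63 (log2) from 1.61 to 7.09 FPKM, and the differences in TLR4-K730R and TLR4-K810R were 2.01 and 1.41, both called. Cited2, which binds the CH1 domain of CBP and p300, fell by 1.63, from 14.8 to 4.09 FPKM, and by 1.35 and 1.37 in the mutants, both called. The median of this list was -0.03 in TLR4-WT, beside -0.28 over all genes.

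Of 21 tested SAGA and ATAC subunits, 0 were called higher and 4 lower in TLR4-WT, with a median of -0.33. Tada1, a SAGA core subunit, fell by 1.14, from 8.16 to 3.10 FPKM, and Zzz3, an ATAC subunit, fell by 1.36, from 6.77 to 2.28 FPKM. Sgf29 was chosen after its values were seen: this reader of methylated histone H3 in both complexes was called lower in each genotype, at -1.03, -1.02 and -0.91. Of 15 TIP60 complex subunits, 0 were called higher and 4 lower, with a median of -0.28. Actl6a, an actin-related subunit, fell by 1.08, from 16.5 to 7.49 FPKM, and Mbtd1 by 1.03, from 3.62 to 1.21 FPKM.

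Of 8 subunits of the MOZ, MORF and HBO1 complexes, none was called in TLR4-WT, with a median of -0.07. Brpf3, a scaffold of HBO1 chosen after its values were seen, was called higher over the mean of the genotypes, where 13.9% of all genes were (0.60, limma, adjusted p = 2.04e-04), and Jade1, also chosen so, was called lower, where 40.9% were (-0.62, adjusted p = 8.87e-05). Of 8 MSL and NSL subunits, which work with Kat8, 0 were called higher and 2 lower in TLR4-WT, Msl3 by 0.67 and Mcrs1 by 0.47, with a median of -0.38. Of 5 histone chaperones that work with Hat1, Asf1a rose by 0.93, from 1.54 to 3.89 FPKM, and Rbbp7, the chaperone in the Hat1 holoenzyme, fell by 0.42, from 30.6 to 22.7 FPKM. Over the mean of the genotypes 1 of these 5 was called higher (Asf1a) and 4 lower, with a median of -0.46, beside 13.9% of all genes called higher, 40.9% lower and a median of -0.30.

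Of 13 other acetyltransferases, 0 were called higher and 4 lower in TLR4-WT, with a median of -0.41. Clock, the circadian factor with acetyltransferase activity, fell by 1.04, from 4.54 to 1.76 FPKM, and Nat10, an RNA acetyltransferase, by 1.21, from 3.49 to 0.99 FPKM. Ncoa3, a nuclear receptor coactivator chosen after its values were seen, was called lower in each genotype, at -0.86, -0.97 and -1.02. Of 16 readers of acetylated lysine, 0 were called higher and 2 lower, with a median of -0.09. Smarca2, a bromodomain ATPase of BAF complexes, fell by 1.45, from 5.72 to 1.62 FPKM, and Bptf, the NURF subunit, by 0.88, from 12.2 to 6.12 FPKM. Of 10 genes of acetyl-CoA supply, 0 were called higher and 3 lower, with a median of -0.33. Acly, which makes acetyl-CoA from citrate, fell by 0.64, from 59.4 to 37.8 FPKM, and Acss1, the mitochondrial acetyl-CoA synthetase, by 1.30, from 6.47 to 2.06 FPKM. Of 15 histone deacetylases, 0 were called higher and 6 lower in TLR4-WT. In the mutants 1 was called higher and 7 lower (TLR4-K730R, where 26.5% of all genes were lower) or 1 higher and 5 lower (TLR4-K810R, where 19.7% were). In all lists here the falls stand beside 23.9% of all tested genes called lower in TLR4-WT.

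No gene of these lists of acetylation machinery was called between a mutant and TLR4-WT or between their LPS responses in the 18 libraries. Without the third LPS libraries of TLR4-WT and TLR4-K730R, 4 of them passed the threshold in TLR4-K810R against TLR4-WT after LPS, where 5.94% of all genes did. They were chosen after their values were seen. Elp3 (0.60, 1 of 13 other acetyltransferases), Acly (0.46, 1 of 10 genes of acetyl-CoA supply) and Hdac6 (1.08, 1 of 15 histone deacetylases) were higher. Asf1a (-0.73, 1 of 5 chaperones that work with Hat1) was lower. The remaining lists, of 11, 21, 15, 8, 8 and 16 tested genes, held 0. In TLR4-K810R against TLR4-WT control libraries, where 1.58% of all genes were called, 1 of 12 S-phase and 2 of 10 G2 and M genes were called higher, Uhrf1 (1.14, limma, adjusted p = 0.00725), Birc5 (1.76, adjusted p = 0.00922) and Plk1 (1.21, adjusted p = 0.00336). So were 4 of 7 mesothelial and fibroblast markers, Col1a1 (2.15), Wt1 (2.19), Dcn (2.0) and Col1a2 (1.85) and 2 of 5 intestinal markers, Fabp1 (2.66) and Fcgbp (1.1). In TLR4-K730R control libraries Fcgbp was higher (1.19) and the neutrophil marker Retnlg lower (-1.46), and the neutrophil marker S100a9 was higher in TLR4-K810R after LPS (1.42). The part of such cells in the levels of the 10 genes was not tested.

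Across the 18 libraries the 3 tested genes most like Crebbp by Pearson's r of log2(FPKM + 1) were Gm38560 (0.80), Kmt2b (0.79), a histone H3 lysine 4 methyltransferase, and Luc7l2 (0.78), a splicing factor. Ep300 had an r of 0.54 with Crebbp and stood at rank 400, and Kat2b an r of -0.47. Among the 10 genes the highest r was between Kat2b and Hat1 (0.74), both of which were higher after LPS. These values describe 18 libraries that share LPS treatment and scaling.

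Finally, 4 cassette exons of these genes had both the included and the skipped form listed in all 18 libraries, and their inclusion was computed as the included share of the summed FPKM. The exon of 107 bases of Kat7 at chr11:95276443-95276549 (GRCm38) was included at a mean of 91.2% in control libraries and 79.7% after LPS, with a range from 30.6% to 98.7%. The lowest value is that of TLR4-K730R LPS library 2, without which the mean after LPS was 85.8%. A second Kat7 exon of 90 bases, chr11:95291520-95291609, lay between 61.5% and 83.2%. The Kat5 exon of 156 bases at chr19:5608802-5608957 lay between 7.81% and 77.5%, and the Kat6a exon of 86 bases at chr8:22861517-22861602 between 65.5% and 99%. No difference in inclusion between LPS and control libraries passed an exact permutation test within genotype, a test chosen after seeing the data (lowest p = 0.112, adjusted over 4 exons p = 0.450).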

How the data were processed

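RNA-seq was measured in 18 libraries, grouped and numbered by their labels. The authors deposited FPKM values per library, in one row per transcript event (first exon, last exon, cassette exon and others) with a mouse Ensembl number, in the layout of a splicing event program. Aligner and program are not given in the sources used here. The submitters' processing notes list the build hg18, whereas the coordinates fit mouse GRCm38. The files held 80071 to 90401 rows, and events off the strand or span of their gene in GENCODE vM21 were dropped (4.61% to 9.19% of first-exon and last-exon FPKM).

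For each gene and library, first-exon rows and last-exon rows were summed separately and the larger sum was taken. Either end can be listed in part. The 9707 genes reaching 1 FPKM in 3 or more libraries entered limma 3.58.1 (R 4.3.3) on log2(FPKM + 1), with an intensity trend, 6 group means in one fit and Benjamini-Hochberg adjustment over all of them, at the study's threshold of 0.01. The design also named 3 paralogue ratios for an exact two-sided permutation test. The code was tested on simulated data. Python 3.11.15 with pandas 2.3.3 served for the rest.

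The 10 genes and the lists were chosen with earlier results of these data known. The rule for naming covered all 10, the 3 genes most like Crebbp and check genes. From each list it covered up to 2 of the largest called rises and falls in TLR4-WT. It also covered list genes called in a mutant comparison, with histone deacetylases by counts only. Sgf29, Ncoa3, Brpf3, Jade1, Elp3 and Hdac6 were named outside this rule, after their values were seen. Some cell type markers, such as Cd14 and Sftpc, were also named outside it. Alternatives covered pseudocount, filter, scaling, the events used, the model, the threshold, a replicate block and leaving out each library.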

Additional observations from a re-analysis of the deposited data

How the results depend on the processing

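The number of the 10 genes called between LPS and control in TLR4-WT (1) was 2 with median-of-ratios scaling, with events wherever they lie, without the intensity trend, with the replicate block and with the largest single event, 4 with library weights, 4 at an adjusted p below 0.05, and 0 with only the groups compared in the fit. Without the third LPS libraries of TLR4-WT and TLR4-K730R it was 2 in TLR4-WT, 0 in TLR4-K730R and 1 for TLR4-K810R against TLR4-WT after LPS. It ranged from 0 (without the second TLR4-WT LPS library) to 2 (without the third) when 1 library was left out. In TLR4-K730R (1) it was 0 without a filter on low values, with last-exon events only, with library weights and with only the groups compared, 2 with median-of-ratios scaling and with the largest single event, and 0 to 1 with a library left out. In TLR4-K810R (0) it was 1 at an adjusted p below 0.05, and for TLR4-K810R against TLR4-WT after LPS (0) it was 1 with library weights. Over the mean of the genotypes (3) it was 1 with last-exon events only, 2 with the replicate block, without a filter, with first-exon events only and with a mean of at least 5 FPKM (where Kat6b was not tested), 4 with median-of-ratios scaling, with the largest single event and at an adjusted p below 0.05, and 2 to 4 with a library left out. The replicate block added Kat6b in TLR4-WT (adjusted p = 0.00783) and removed Hat1 over the mean of the genotypes (adjusted p = 0.0112), and changed no other call of the 10 genes. Hat1 over the mean was also lost without a filter (adjusted p = 0.0115) and with first-exon events only (adjusted p = 0.0245). The largest single event, the contrast over the mean and the setting without LPS library 3 of both genotypes were chosen after seeing the data. The causes were not tested. Counts over all genes moved with the settings too. In TLR4-WT 1493 were called higher and 1380 lower with median-of-ratios scaling, against 1012 and 2316. At an adjusted p below 0.05, 47.4% of all genes were called in TLR4-WT and 40.3% in TLR4-K810R. With the largest single event 34.7% were called in TLR4-WT, 36.4% in TLR4-K730R and 55.3% over the mean of the genotypes. Shares for the remaining settings are not given in this section, so a move in a count of the 10 is not shown to be particular to them.

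The difference of Kat6a over the mean of the genotypes reversed to 0.28 with median-of-ratios scaling. The ratio of Crebbp to Ep300 reversed to -0.86 on the log2 scale with last-exon events only, where the last exon listed for Ep300 averages 0.69 FPKM against 10.3 FPKM for its first exon. It was 0.38 with the largest single event (p = 0.0387, exact permutation). With a library left out that ratio ranged from 0.12 to 0.32, that of Kat2a to Kat2b from -1.27 to -0.90 and that of Kat6a to Kat6b from 2.32 to 3.06. The replicate numbers do not pair the libraries (mean correlation of deviations -0.027, -0.019 and -0.039 for numbers 1, 2 and 3), and with a replicate block the unadjusted exact permutation p of the 3 ratios, in this order, was 0.320, 0.0156 and 0.00781. For last-exon events only, the ratios of Kat2a to Kat2b and of Kat6a to Kat6b could not be computed, because those events have no row in some libraries. Depth is unknown.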
